A study of Mus musculus with 6 samples.

Results

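The genes described here are 10 genes of the colonic crypt base and of epithelial Wnt signaling: Lgr5, Ascl2, Smoc2, Axin2, Znrf3, Rnf43, Prom1, Ephb2, Sox9 and Lrig1. They were chosen by name, with earlier results of these data known, and all 10 were found among the 27202 genes listed. RNA of whole colonic tissue was sequenced in 3 libraries of Nedd4l fl/fl VillinCre mice, labeled cKO, and 3 libraries of Nedd4l fl/fl littermates, labeled WT. The mice were 8 to 10 weeks old and had drunk water with 2% dextran sulfate sodium (DSS), which injures the colonic epithelium, until they were sacrificed on day 7, so there was no group without DSS. Both genotypes carried the floxed Nedd4l alleles, and Cre under the Villin promoter deleted the gene constitutively in intestinal epithelial cells (IECs). The comparison between genotypes asked which genes differed in inflamed colon when IECs lacked NEDD4L, a HECT-family ubiquitin ligase.

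The colonic epithelium is renewed by stem cells at the base of its crypts. R-spondin proteins from the surrounding stroma bind LGR receptors on these cells and remove the ligases RNF43 and ZNRF3, which otherwise take Frizzled Wnt receptors off the cell surface. Wnt binding then stabilizes beta-catenin, which enters the nucleus and acts with TCF/LEF factors on target genes. These targets include stem cell genes such as Lgr5 and Ascl2 and the feedback inhibitors Axin2, Rnf43 and Znrf3, so their RNA is widely used to read crypt Wnt activity.

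Nedd4l itself was measured first as a check of the labels. Its normalized counts, which are reads per gene divided by a size factor of the library, were 476, 942 and 566 in cKO 1 to 3 and 1241, 1271 and 1266 in WT 1 to 3. Every cKO library was below every WT library, and the cKO mean was 52.5% of the WT mean. In whole tissue, RNA from cells outside the Cre domain is measured as well, and what made up the Nedd4l RNA left in cKO was not tested. The log2 fold change of cKO minus WT was -0.99 (adjusted p = 0.225, limma with Benjamini-Hochberg adjustment), without cKO 1 it was -0.79 (adjusted p = 0.226), and without cKO 2 it was -1.28 (adjusted p = 0.0130).

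The libraries held 14914367 to 17547270 steps of their smallest value, between 0.90 and 1.11 normalized counts a step. Genes whose mean over the libraries reached 10 normalized counts were tested (16246), and 0 of them passed an adjusted p of 0.05 (0%). Before adjustment, p was under 0.05 for 1151 genes that were lower in cKO (7.08%) and for 1122 that were higher (6.91%). In 1767 genes (10.9%) all cKO libraries lay below all WT libraries, and in 1706 (10.5%) all lay above. Over genes, cKO 2 correlated more with the WT libraries (mean r = 0.977) than with the other cKO libraries (0.966), and cKO 1 had the weakest correlation with the other genotype (0.948). The log2 fold change of each of the 10 genes is therefore also given without cKO 1 and without cKO 2.

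Of the 10 genes, 8 had a log2 fold change below 0 and 2 above 0, and 0 passed the adjusted threshold, with adjusted p from 0.347 to 0.999 in limma. At an unadjusted p under 0.05, 1 gene was lower in cKO, Axin2, and 0 were higher, against 7.08% and 6.91% of all tested genes. All cKO libraries lay below all WT libraries for 2 genes, Axin2 and Znrf3 (10.9% of all tested genes did so), and above them for 1 gene, Prom1 (10.5%). The genotypes overlapped for the other 7. The median log2 fold change was -0.23 for the 10 genes and 0.0013 for all tested genes, of which 49.8% were below 0. The sign of the median of the 10 genes depended on the fit, at 0.019 with array weights and 0.14 with the fibroblast marker level as a covariate. With 3 libraries against 3, an exact permutation test of a single gene cannot give a two-sided p below 0.10, and since it is not stated that each library is a separate mouse, the p-values measure only the spread between these libraries, which may be in part technical.

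**Figure D1:**
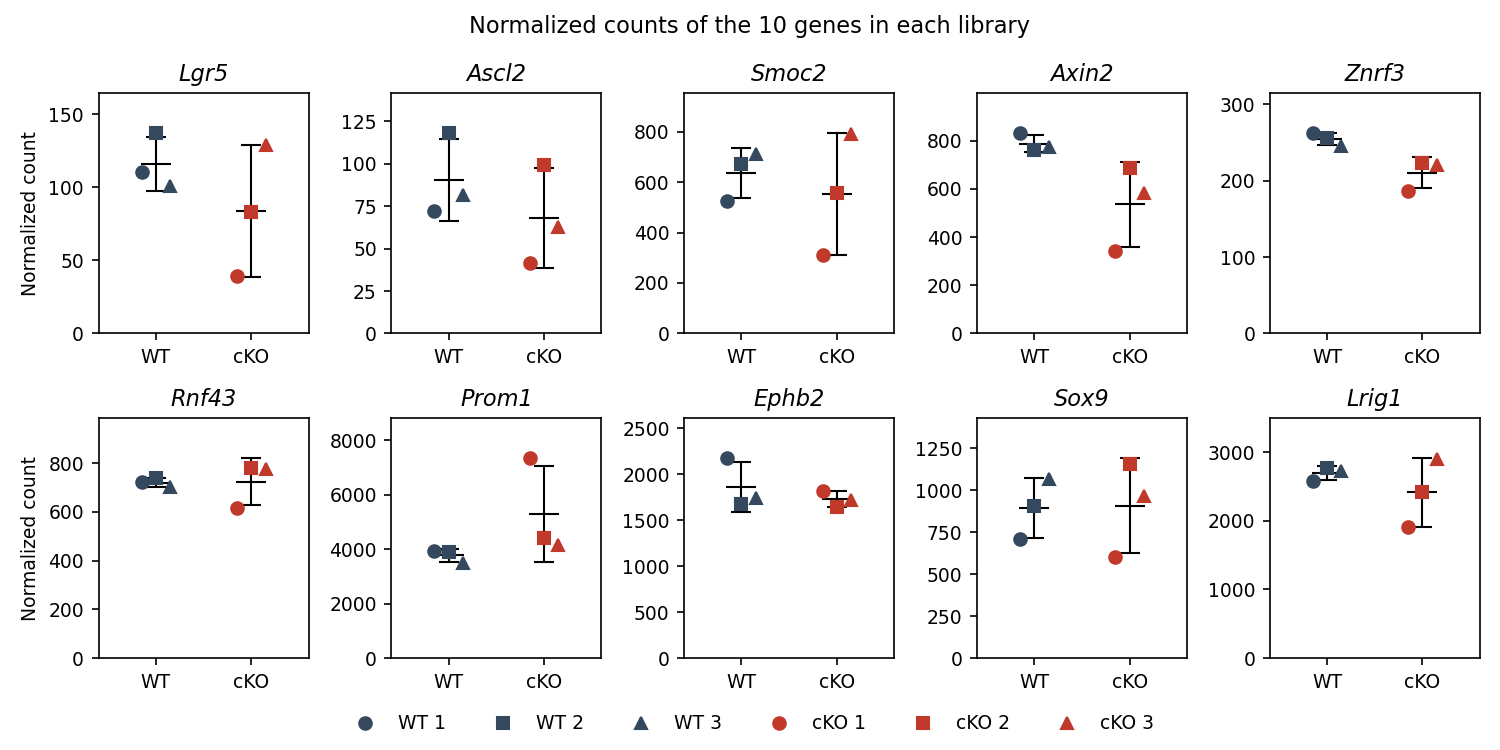
Normalized counts (y axis, from 0, own scale per gene) of the 10 genes in WT (dark) and cKO (red) libraries; a point is 1 library, and the bars are the mean and SD of 3. For Axin2 and Znrf3 all cKO points are below the WT points, for Prom1 all are above, and cKO 1 is the lowest point of 8 genes.

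Axin2 encodes a scaffold of the complex that destroys beta-catenin, and its transcription is a feedback response to Wnt. Its normalized counts were 341, 684 and 584 in cKO 1 to 3 and 830, 761 and 772 in WT 1 to 3. The WT libraries lay close together, and the 3 cKO libraries were all below them, cKO 1 by the most at 43.3% of the WT mean and cKO 2 by the least at 86.9%. The means were 536 ± 176 in cKO and 788 ± 36.8 in WT (SD, n = 3 each), a log2 fold change of -0.61 (SE 0.25, 95% interval -1.20 to -0.02, limma adjusted p = 0.347, exact permutation p = 0.10). Without cKO 1 it was -0.32, and without cKO 2 it was -0.82. In both cases the adjusted p in limma stayed above the threshold, at 0.336 and 0.137.

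The region before the Axin2 start is shown because this gene had the smallest p of the 10 genes. It is on mouse chromosome 11 at chr11:108920099-108920348 in GRCm38.p6 (RefSeq), on the plus strand, and it ends at the base before the gene's start. It is 250 bases long, with 69.2% G or C and 24 CG pairs, and it held neither CTTTGA nor CTTTGT, core words of TCF/LEF binding sites, on either strand.
Axin2 upstream: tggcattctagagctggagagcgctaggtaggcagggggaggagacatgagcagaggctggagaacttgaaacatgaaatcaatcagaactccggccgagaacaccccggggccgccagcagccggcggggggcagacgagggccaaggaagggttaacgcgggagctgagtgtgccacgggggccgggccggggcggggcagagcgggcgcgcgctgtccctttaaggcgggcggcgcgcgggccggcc

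RefSeq promoter windows, from 250 bases before to 50 bases after a start, were found for 6 of the 10 genes: Ascl2, Axin2, Ephb2 and Lrig1 with 1 each and Prom1 and Rnf43 with 2 each. Either word was present on either strand in 1 of these 8 windows (12.5%) and in 31.2% of all 32851 windows. The match lay in 1 of the 2 Prom1 windows, starting at base 9 after that start, and the word is given in capitals in the stretch at chr5:44094743-44094772, minus strand.
Prom1 stretch: ccagggatggtaCTTTGAgtgaatgaccac
These windows cover only the bases next to a start, and binding was not measured in this series.

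Znrf3 and Rnf43 encode the transmembrane ubiquitin ligases that clear Frizzled receptors, and both are Wnt targets. The normalized counts of Znrf3 were 187, 223 and 221 in cKO 1 to 3 and 262, 256 and 246 in WT 1 to 3. The genotypes did not overlap, although the gap between the highest cKO and the lowest WT library was small. The means were 210 ± 20.3 in cKO and 255 ± 8.19 in WT (SD, n = 3 each), a log2 fold change of -0.28 (SE 0.13, 95% interval -0.58 to 0.03, limma adjusted p = 0.385). It was -0.20 without cKO 1 and -0.32 without cKO 2.

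Rnf43 was measured at 614, 782 and 778 normalized counts in cKO 1 to 3 and at 722, 738 and 701 in WT 1 to 3. A cKO library was the lowest of the 6 and the other two were the highest, so the genotypes overlapped. The means were 725 ± 95.4 in cKO and 720 ± 18.4 in WT (SD, n = 3 each), with a log2 fold change of 0.00028 (SE 0.11, 95% interval -0.26 to 0.26, limma adjusted p = 0.999). Its sign was not stable: it was 0.11 without cKO 1 and -0.06 without cKO 2.

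Because the paralogous ligases serve the same step, Znrf3 was also read against Rnf43 within each library, as a ratio of normalized counts in which the size factor of the library cancels. The ratio was 0.304, 0.286 and 0.284 in cKO 1 to 3 and 0.363, 0.348 and 0.350 in WT 1 to 3. The cKO libraries lay within a narrow range below all WT libraries, and cKO 1, the lowest library for either gene alone, was here the highest of the cKO libraries. The means were 0.291 ± 0.0113 and 0.354 ± 0.00794 (SD, n = 3 each), which differ by -0.28 on the log2 scale (exact permutation p = 0.10, the smallest this design can give). The ratio of Axin2 to Rnf43 was 0.555, 0.876 and 0.751 in cKO and 1.15, 1.03 and 1.10 in WT. No cKO library reached the WT range, as for Axin2 alone, with means of 0.727 ± 0.161 and 1.09 ± 0.0590 (exact permutation p = 0.10). Both ratios differ by nearly the same amount as Znrf3 (-0.28) and Axin2 (-0.61) do alone, so they are not separate results. Axin2 over Znrf3 and Lgr5 over Rnf43 overlapped between genotypes (exact permutation p = 0.20 and 0.30), as did Ascl2 over Lgr5 and Prom1 over Lrig1. These 6 ratios were formed after the values of the genes were known and are given as descriptions. A difference in a ratio would mean that the 2 genes differ unequally between genotypes, and it does not show which of them differs. The share of other gene pairs whose ratios do not overlap was not computed.

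**Figure D2:**
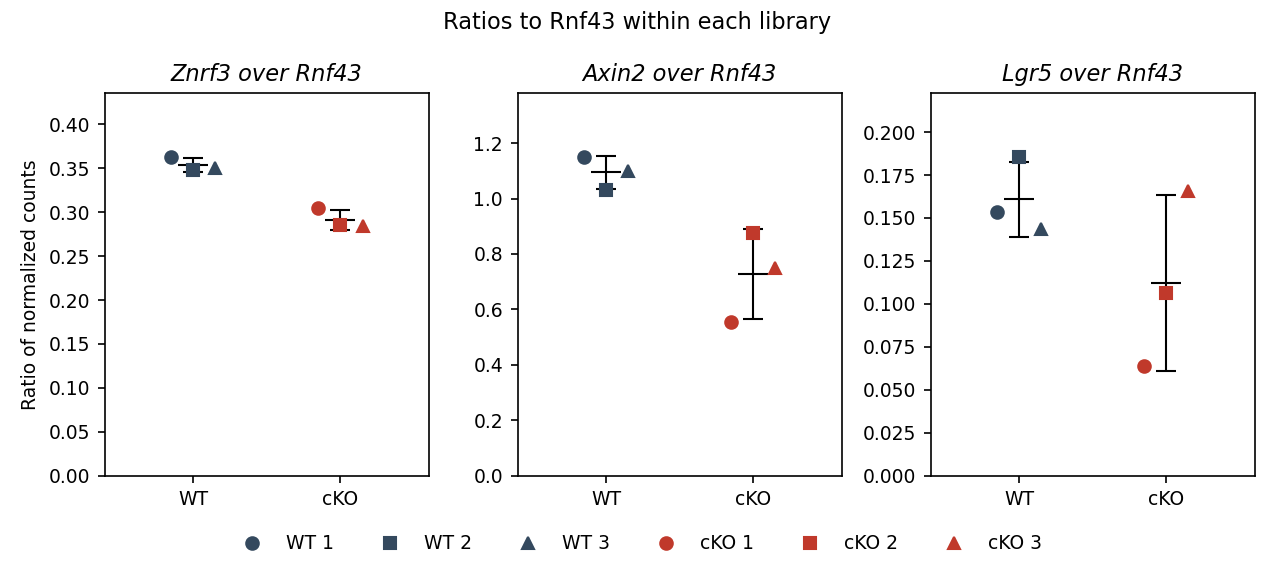
Ratios of the normalized counts of Znrf3, Axin2 and Lgr5 to those of Rnf43 (y axis, from 0) within each WT (dark) and cKO (red) library; bars are the mean and SD of 3 libraries. The Znrf3 ratio is 0.284 to 0.304 in cKO and 0.348 to 0.363 in WT without overlap, while the Lgr5 ratio overlaps.

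Lgr5 encodes the R-spondin receptor that marks cycling crypt base stem cells. Its normalized counts were 39.3, 82.9 and 129 in cKO 1 to 3 and 111, 137 and 101 in WT 1 to 3. cKO 1 was at 33.9% of the WT mean, cKO 2 was also below all WT libraries, and cKO 3 lay inside the WT range. The means were 83.7 ± 44.8 in cKO and 116 ± 18.6 in WT (SD, n = 3 each), a log2 fold change of -0.61 (SE 0.41, 95% interval -1.56 to 0.34, limma adjusted p = 0.516). It had the same size as that of Axin2, but a wider interval. It was -0.15 without cKO 1, -0.68 without cKO 2 and -0.998 without cKO 3.

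Ascl2 encodes the transcription factor that, together with Wnt signaling, specifies crypt stem cells. It was at 41.2, 99.5 and 62.9 normalized counts in cKO 1 to 3 and at 72.1, 118 and 81.9 in WT 1 to 3. Here cKO 1 and cKO 3 were below the WT range and cKO 2 was inside it, so the library inside the WT range was another one than for Lgr5. The log2 fold change was -0.47 (SE 0.35, 95% interval -1.27 to 0.33, limma adjusted p = 0.553). It was -0.16 without cKO 1, -0.79 without cKO 2 and -0.27 without WT 2, the library with the highest value.

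Smoc2 encodes a secreted calcium-binding matrix protein that is part of the crypt stem cell signature and is made by stromal cells as well. Its normalized counts of 311, 556 and 791 in cKO 1 to 3 spread from below to above the WT libraries, which were at 523, 672 and 712. The log2 fold change was -0.29 (SE 0.34, 95% interval -1.13 to 0.55, limma adjusted p = 0.722), and it was 0.07 without cKO 1, -0.35 without cKO 2 and -0.60 without cKO 3.

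Sox9 encodes a transcription factor of crypt base and progenitor cells. It was at 603, 1158 and 965 normalized counts in cKO 1 to 3 and 708, 909 and 1067 in WT 1 to 3. Both the lowest and the highest library were cKO, and the log2 fold change was -0.01 (SE 0.27, 95% interval -0.66 to 0.64, limma adjusted p = 0.991), with 0.26 without cKO 1 and -0.21 without cKO 2. Lrig1, an ERBB receptor inhibitor that restrains growth factor signaling in stem cells, was at 1911, 2421 and 2906 in cKO 1 to 3 and 2576, 2774 and 2730 in WT 1 to 3. The WT libraries were close together, with cKO 1 and cKO 2 below them and cKO 3 above. The log2 fold change of Lrig1 was -0.18 (SE 0.14, 95% interval -0.51 to 0.15, limma adjusted p = 0.585), and it was -0.02 without cKO 1, -0.19 without cKO 2 and -0.32 without cKO 3. The Slc25a26 gene overlaps Lrig1 on the opposite strand and had 87.3 to 148 normalized counts, and whether counting used strand is not stated.

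Ephb2 encodes a receptor tyrosine kinase that keeps cells at the crypt base through repulsion by ephrin-B ligands. Its normalized counts were the most even of the 10 genes within cKO, at 1823, 1647 and 1723, while WT 1 at 2175 stood above WT 2 and WT 3 at 1677 and 1741. The genotypes overlapped, and the log2 fold change was -0.10 (SE 0.11, 95% interval -0.36 to 0.16, limma adjusted p = 0.702). It was -0.14 without cKO 1, -0.06 without cKO 2 and 0.02 without WT 1.

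Prom1 encodes prominin-1, or CD133, a pentaspan membrane glycoprotein of plasma membrane protrusions that is found on crypt stem cells and in the colon on other epithelial cells too. Its normalized counts were 7344, 4418 and 4156 in cKO 1 to 3 and 3924, 3912 and 3505 in WT 1 to 3. All cKO libraries were above all WT libraries, with cKO 1 at 194% of the WT mean and the other two at 117% and 110%. The means were 5306 ± 1770 in cKO and 3780 ± 238 in WT (SD, n = 3 each), and the log2 fold change was 0.44 (SE 0.21, 95% interval -0.07 to 0.96, limma adjusted p = 0.406, exact permutation p = 0.10). Without cKO 1 the log2 fold change was 0.18, and without cKO 2 it was 0.55.

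**Figure D3:**
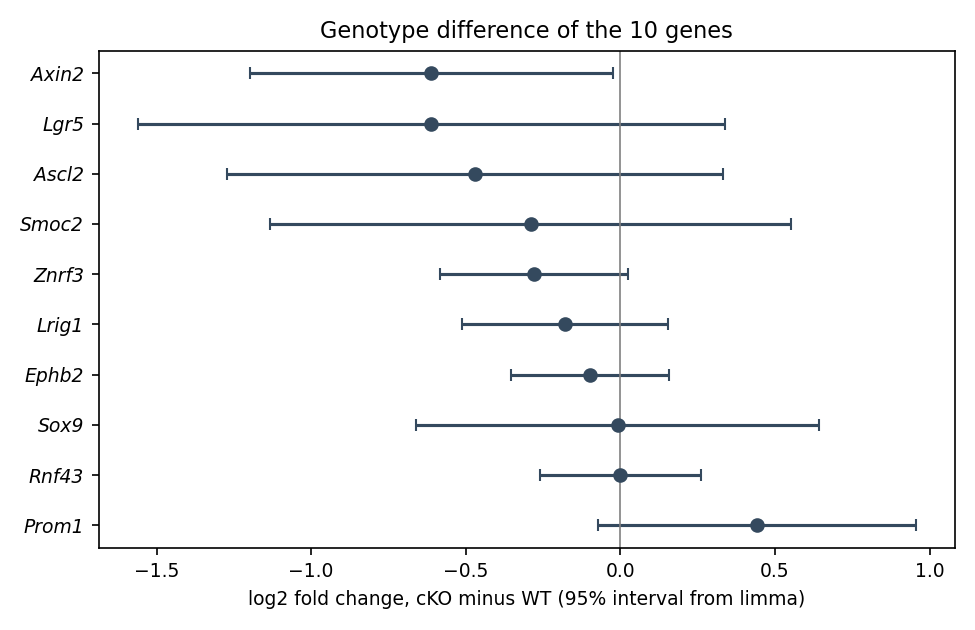
log2 fold change of cKO minus WT (x axis) of each gene, as a point with its 95% interval from limma over 6 libraries; the vertical line is at 0. The Axin2 interval, -1.20 to -0.02, lies below 0 before adjustment, and the other 9 include 0.

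The 10 genes did not vary in parallel, but 1 library set much of their spread. cKO 1 was the lowest of the 6 libraries for 8 of the 10 genes and the highest for 1, Prom1, while over all tested genes it was the lowest for 22.9% and the highest for 24.4%. The median log2 difference from the WT mean over the 10 genes was -0.52 in cKO 1, -0.16 in cKO 2 and 0.11 in cKO 3. The SD of the log2 values was larger in cKO than in WT for 9 of the 10 genes, Ephb2 being the exception, against 56.6% of all tested genes. The median SD was 0.47 in cKO and 0.15 in WT for the 10 genes, and 0.19 and 0.17 for all tested genes.

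**Figure D4:**
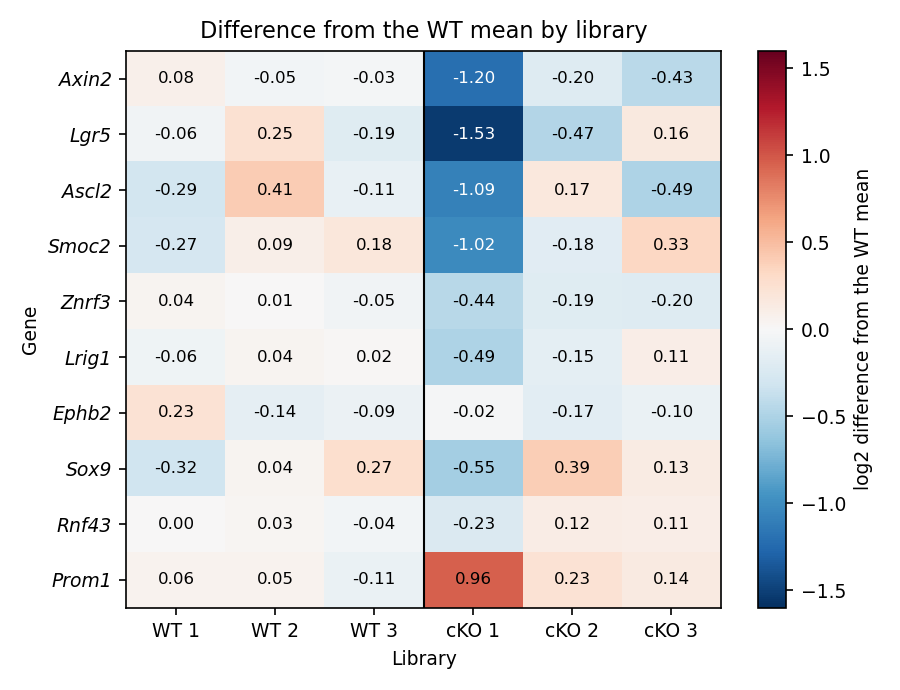
log2 difference of each library from the WT mean for the 10 genes (rows) in the 6 libraries (columns), with blue for below and red for above the WT mean. The cKO 1 column holds the largest differences, from -1.53 for Lgr5 to 0.96 for Prom1.

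Leaving out a library moved the counts of genes accordingly. Without cKO 1, 6 of the 10 were below 0 (49.2% of all genes) with a median of -0.079, Axin2 was the 1 gene with an unadjusted p under 0.05 (6.35% of all genes then tested were lower and 5.27% higher at that p), and all cKO libraries were below WT for Axin2 and Znrf3 (15.7% of all genes) and above WT for Rnf43 and Prom1 (15.1%). Without cKO 2, 9 were below 0 (50.5% of all genes), and Ascl2 and Axin2 were lower at the unadjusted p (8.77% of all genes lower, 8.94% higher). The cKO libraries left were then below WT for Ascl2, Axin2 and Znrf3 (19.1%) and above WT for Prom1 (18.5%). Without cKO 3, 9 were below 0 (49.4% of all genes), Lgr5 and Lrig1 were lower and Prom1 was higher at the unadjusted p (4.81% of all genes lower, 4.93% higher), and the libraries left of cKO were below WT for Lgr5, Axin2, Znrf3 and Lrig1 (14.4%) and above WT for Prom1 (14.6%). Without WT 1, WT 2 or WT 3, 0 of the 10 had an unadjusted p under 0.05 (4.53% to 5.25% of all genes lower, 4.91% to 5.99% higher). The unadjusted limma p of Axin2 was then 0.110, 0.0803 and 0.0913, and it was 0.0519 without cKO 3. In each of these cases 0 of the 10 passed the adjusted threshold in limma.

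**Figure D5:**
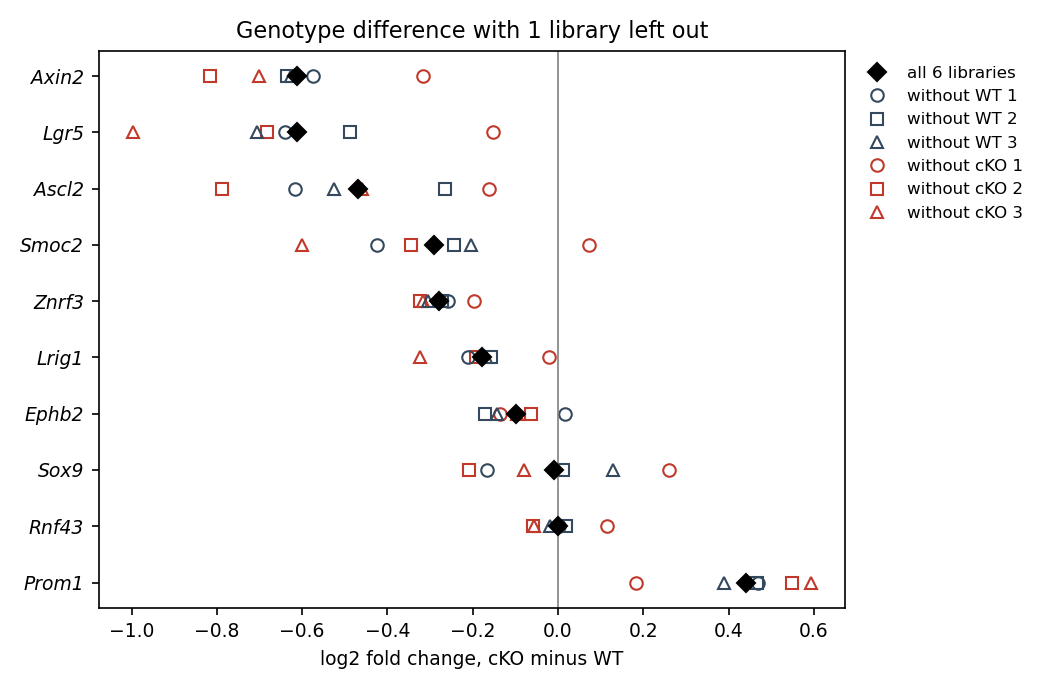
log2 fold change of cKO minus WT (x axis) of each gene with all 6 libraries (black) and with 1 library left out (open symbols). Axin2 and Znrf3 stay below 0 and Prom1 above 0 in every case, while Smoc2 and Sox9 move to the other side of 0 without cKO 1.

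The genes also differ in level, which was compared per kilobase of gene length as listed. In WT the order of the mean normalized counts per kilobase was Prom1 (527 ± 33.2), Lrig1 (482 ± 18.6), Sox9 (216 ± 43.5), Ephb2 (148 ± 21.5), Axin2 (143 ± 6.69), Rnf43 (110 ± 2.81), Smoc2 (91.5 ± 14.3), Ascl2 (55.8 ± 14.8), Znrf3 (32.3 ± 1.04) and Lgr5 (11.3 ± 1.81; SD, n = 3 each). The ranges of neighbors in this order overlapped for Prom1 and Lrig1, for Sox9 and Ephb2 and for Ephb2 and Axin2, and were apart otherwise. In cKO the neighbors from Axin2 to Znrf3 overlapped. There Axin2, at 97.4 ± 32.0 per kilobase, was no longer above Rnf43, at 110 ± 14.6.

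In bulk tissue, fewer cells of a type and less RNA per cell cannot be told apart, so the genes were set against markers of the cells around them. The 11 pan-epithelial markers, such as Epcam and Krt8, were all measured, with 8 below and 3 above 0, a median log2 fold change of -0.07 and a summed level of 229592 to 264581 in cKO and 250714 to 267291 in WT. Their mean log2 level differed from the WT mean by -0.12, 0.04 and -0.06 in cKO 1 to 3. Relative to it, Axin2 differed by -0.57 and Znrf3 by -0.23 on the log2 scale, with all cKO libraries below WT, and Prom1 by 0.49 with all above. The same 3 genes did so before this subtraction, and the share of all tested genes that do so on this scale was not computed. The other 7 genes still overlapped.

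The levels of markers of other cells and of proliferation differed between the libraries, although with all 6 libraries 0 genes of these lists passed the adjusted threshold in limma. At an unadjusted p under 0.05, 3 fibroblast and 4 myeloid markers were higher, and 7 proliferation markers were lower and 1 was higher, against 7.08% of all genes lower and 6.91% higher. All 8 fibroblast markers were above 0 with a median of 0.67, and their summed level was 44387 in cKO 1, 22287 and 23556 in cKO 2 and 3, and 11335 to 19346 in WT. All 8 myeloid markers were above 0 with a median of 0.71, summing to 7516 to 12601 in cKO and 3879 to 6329 in WT, and the neutrophil gene S100a9 was at 2680 in cKO 1 and at 27.6 and 348 in cKO 2 and 3. The 12 proliferation markers summed to 19887 to 22022 in cKO and 24758 to 26903 in WT, with 10 below 0. Ccnb1, the 1 that was higher at the unadjusted p, was at 0.37 with all cKO libraries above WT (limma adjusted p = 0.293). Mki67 was at -0.10, Ccna2 at -0.03 and Cdk1 at 0.06, each with overlap. Of the distal colon Hox genes, Hoxd13 was at 17.3 in cKO 1, 334 and 651 in cKO 2 and 3 and 78.9 to 213 in WT. The genotypes overlapped for Hoxd13. With all 6 libraries the Hox list had a median of -0.06, with 3 of 5 tested genes below 0. Hoxa13 was the 1 Hox gene with an unadjusted p under 0.05 (0.0418, adjusted p = 0.344, limma). It was at 810, 869 and 762 in cKO and 1067, 896 and 926 in WT, lower in cKO without overlap. The 6 Hox genes summed to 3116 in cKO 1 and 4823 to 5676 in the other 5 libraries. Without cKO 1 the median log2 fold change was 0.33 for the fibroblast, 0.60 for the myeloid, -0.58 for the proliferation and 0.59 for the Hox list, and 4 proliferation markers, the replication genes Mcm2, Mcm3, Mcm5 and Mcm6, passed the adjusted threshold. Without cKO 2 the medians were 0.83, 0.80, -0.56 and -0.29, with 0 genes of these lists past the threshold in limma. No marker of the fibroblast, myeloid or proliferation lists was at 0 in any library. The part of these values in the results on the 10 genes was not tested, beyond fits with the pan-epithelial or the fibroblast level as a covariate.

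Of the remaining markers, the 9 of colonocytes had a median log2 fold change of -0.28 with 5 below 0, and the 8 of goblet cells had -0.02 with 4 below 0. Their summed levels overlapped between genotypes. The medians were -0.47 for 7 smooth muscle, 0.33 for 6 endothelial, -0.33 for the 5 tested neuron and glia and 0.21 for 8 T and B cell markers, again with overlapping sums. Without cKO 1 the goblet median was 0.37, with 8 of 8 above 0, and without cKO 2 it was -0.18. The colonocyte median was -0.35 without cKO 1 and -0.40 without cKO 2. Without cKO 2, 1 colonocyte marker, Car4, passed the adjusted threshold (-1.13, limma adjusted p = 0.0433). At an unadjusted p under 0.05, 3 were then lower and 2 higher (8.77% and 8.94% of all genes). With all 6 libraries 0 colonocyte markers were lower at that p, and 1, Ms4a12, was higher.

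The receptors and transducers upstream of the 10 genes showed no common direction. Of 32 genes from Frizzled receptors to TCF factors, 31 were tested, 13 were below and 18 above 0, and the median was 0.03. Before adjustment 1 of them was lower and 2 were higher in cKO at p under 0.05 (7.08% and 6.91% of all genes). All cKO libraries lay below all WT libraries for 4 of them, Fzd7, Fzd8, Lrp5 and Gsk3b (10.9% of all genes). They lay above for 2 (10.5%). The median was 0.0029 without cKO 1 and 0.04 without cKO 2. Fzd7, a Frizzled receptor, was at 179, 313 and 245 normalized counts in cKO and 370, 407 and 354 in WT, a log2 fold change of -0.65 without overlap (limma adjusted p = 0.278), with -0.44 without cKO 1 and -0.84 without cKO 2. Tnks2, a tankyrase that marks axins for degradation, was at 0.24 (adjusted p = 0.314), and Bcl9l, a beta-catenin coactivator, at 0.25 (adjusted p = 0.326, limma), both with all cKO libraries above WT.

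Of 16 further Wnt target genes, 13 were tested, with 7 below and 6 above 0 and a median of -0.03. Apcdd1, a Wnt inhibitor at the cell surface, was at 89.1, 27.6 and 33.0 normalized counts in cKO and 21.7, 15.3 and 18.0 in WT, a log2 fold change of 1.21 (limma adjusted p = 0.316), with 0.70 without cKO 1 and 1.53 without cKO 2. This is the direction opposite to that of Axin2, without overlap between genotypes. Fermt1, which encodes the integrin activator kindlin-1, was at -0.27 with all cKO libraries below WT (limma adjusted p = 0.337), and Cd44, a hyaluronan receptor, was at 0.32 with overlap (limma adjusted p = 0.448). Notum, Sp5 and Dkk2 had means under 10 and were not tested.

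Of 15 further crypt stem cell genes, 14 were tested, with 9 below and 5 above 0 and a median of -0.15. Before adjustment, p was under 0.05 for 2 that were lower and for 0 that were higher (7.08% and 6.91% of all genes). The median was -0.08 without cKO 1 and -0.35 without cKO 2. Cdca7, a chromatin factor linked to DNA methylation, was at 862, 936 and 916 normalized counts in cKO and 1185, 1358 and 1173 in WT, a log2 fold change of -0.45 (limma adjusted p = 0.169). The cKO libraries lay close together and below all WT libraries, and the log2 fold change was -0.42 without cKO 1 and -0.48 without cKO 2. Kcnq1, a potassium channel subunit of crypt base cells, was at -0.40 with all cKO libraries below WT (limma adjusted p = 0.275), and Rgmb, a BMP co-receptor, at -0.37 with overlap (limma adjusted p = 0.409). Olfm4, a stem cell marker of the small intestine, had a mean under 10 and was not tested.

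Ligands and neighbors in the crypt were described in the same way. Of the R-spondin and LGR genes, 5 of 6 were listed and 2 tested. Lgr4, the R-spondin receptor of the wider epithelium, was at 3428, 3961 and 4216 normalized counts in cKO and 3361, 3273 and 3833 in WT, a log2 fold change of 0.15 with overlap (limma adjusted p = 0.536). Rspo3, the ligand made by stromal cells, was at 47.9, 18.8 and 25.8 in cKO and 22.7, 22.5 and 6.99 in WT, with 0.85 and overlap (limma adjusted p = 0.488). All 6 tested EPH receptor and ephrin genes had a log2 fold change below 0 (49.8% of all genes), with a median of -0.12. At an unadjusted p under 0.05 in limma, 0 were lower and 0 higher (7.08% and 6.91% of all genes). Without cKO 1 their median was 0.05 with 2 of 6 below 0, and without cKO 2 it was -0.19 with 6 of 6 below 0.

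The pattern of Lgr5 over the 6 libraries was compared with 11879 protein-coding genes of a mean of at least 50, by the root mean square distance of log2 values centered on their own mean. The nearest were Gm47283 (0.177), Slc24a3 (0.189), Ahnak2 (0.221), Amz1 (0.235) and Ephb6 (0.237), against 0.594 for a flat profile. Ephb6, a kinase-dead EPH receptor, was at 123, 292 and 607 normalized counts in cKO and 458, 399 and 383 in WT. As for Lgr5, cKO 1 was the lowest library and cKO 3 the highest of the cKO libraries. In cKO 3, however, Ephb6 was above all WT libraries, while Lgr5 was inside the WT range. Among the other 9 genes of this report, Smoc2 ranked 14 and Axin2 55, followed by Lrig1 (240), Ascl2 (343), Znrf3 (703), Sox9 (1136) and Rnf43 (1369). Ephb2 (6178 of 11879) was near the middle of the order, and Prom1 (11078) was far down.

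The genes lie at these GRCm38 positions, with the same coordinates in GENCODE M21. Lgr5 is on the minus strand of chromosome 10 (115450311 to 115587780), Ascl2 on that of chromosome 7 (142966829 to 142969264), Prom1 on that of chromosome 5 (43993620 to 44102032), Ephb2 on that of chromosome 4 (136647539 to 136835988) and Lrig1 on that of chromosome 6 (94604529 to 94700158). Smoc2 is on the plus strand of chromosome 17 (14279506 to 14404790). Chromosome 11 holds Axin2 (108920349 to 108950783), Rnf43 (87662722 to 87735539) and Sox9 (112782224 to 112787760) on the plus strand and Znrf3 (5276324 to 5444847) on the minus strand.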

How the data were processed

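Colonic RNA was sequenced in 3 cKO and 3 WT libraries. The authors deposited normalized counts, a signal in which each library's reads per gene are divided by a size factor, read from values that are whole multiples of 1 step per library. The submitters' processing notes name HISAT2 2.0.5, featureCounts 1.5.0-p3 and a human build, whereas 27164 of 27202 genes are in GENCODE M21 on GRCm38 and 97.2% have its coordinates there. Strand use in counting is not stated. The table also holds the authors' genotype means, log2 fold changes and p-values, which were not used.

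Values were transformed to log2(value + 1), and genes with a mean of at least 10 (16246) were fitted in limma 3.58.1 (lmFit, eBayes with trend and robust settings, R 4.3.3), with Benjamini-Hochberg adjustment over all of them and a threshold of 0.05. The fit was tested on simulated data. Exact permutation tests were two-sided. Fold changes on this scale understate those of low genes. Alternatives changed the pseudocount, filter, scaling, moderation, weights, block or covariate, or left out a library. All 10 genes were named. Of other lists, up to 3 genes with the smallest p were named, other genes being chosen after their values were seen. The 10 genes and the lists were chosen with earlier results of these data known. Labels give no batch and do not state whether each library is 1 mouse. No protein table was used here, so a planned search for PY motifs was not run.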

Additional observations from a re-analysis of the deposited data

How the results depend on the processing

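In all 17 alternatives, 0 of the 10 genes passed the adjusted threshold, and Axin2 (-0.82 to -0.22), Znrf3 (-0.32 to -0.17) and Prom1 (0.055 to 0.59) kept their direction. Over all results and alternatives, 220 values kept their direction and side of the threshold or stayed close to the main value, 22 turned, 11 moved and 2 passed the threshold. Genes called over the table numbered 23 lower and 7 higher with no filter on low values and 369 lower and 262 higher with array weights, against 0 and 0. With array weights the median of the 10 genes was 0.019, Lgr5 was 0.0022, Smoc2 0.15, Sox9 0.069 and Lrig1 0.035, all turned from below 0, and Nedd4l was -1.09 (adjusted p = 0.0212, limma). Rnf43, near 0, turned to -0.0097 with quantile normalization and -0.0056 with library-size scaling. With the pan-epithelial level as a covariate the median was -0.15 and Sox9 0.13. With the fibroblast level as a covariate, chosen after seeing the data, the median was 0.14, Lgr5 0.19, Ascl2 0.24, Smoc2 0.39, Sox9 0.52 and Lrig1 0.098, with 6 libraries for 3 coefficients. Leaving out 1 library gave 0 to 52 lower and 0 to 70 higher genes, a median of -0.32 to -0.079, Rnf43 from -0.059 to 0.11, Sox9 from -0.21 to 0.26, Smoc2 from -0.60 to 0.073, Ephb2 from -0.17 to 0.017 and Nedd4l from -1.28 to -0.79. Same-numbered libraries did not deviate together over genes (r = -0.029, -0.090 and -0.056), but with 3 libraries per genotype this cannot exclude a pairing. With the replicate block the median was -0.23, Axin2 -0.61 (adjusted p = 0.348, limma) and 0 genes were called. The SE was then 0.18 for Smoc2 (0.34 in the main fit) and 0.13 for Sox9 (0.27). Of the 10 genes only Znrf3 had a larger SE with the block, 0.14 against 0.13. The planned edgeR and DESeq2 fits on recovered reads were not run. The causes of these shifts were not tested. Lgr5 had as few as 41 steps in a library and Ascl2 as few as 43, and the part of counting error in their spread was not tested.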
